A study of Homo sapiens with 8 samples.

Results

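In LN229-TAZ(4SA) glioblastoma cells, 1738 of 13028 genes tested (13.3%) had a treatment effect that turned sign between 1 h and 7 h. Of these, 922 were lower in treated than in regular cells at 1 h and higher at 7 h, and 816 were higher at 1 h and lower at 7 h. The members were found from the difference of differences, the effect at 7 h minus the effect at 1 h, among genes whose effect passed the test at both times with opposite signs. LN229 is an established human glioblastoma line, and TAZ(4SA) is a form of the transcriptional coactivator TAZ in which serines that mark it for inhibition are replaced by alanine. All cells in the study carried it, the regular cultures too, and no group without it was analysed here.

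RNA was sequenced from 4 groups with 2 libraries each. The 2 regular groups were kept in regular culture without AF for 1 h or 7 h. The 2 treated groups were kept without glucose and with AF at 1 µM for the same times. The labels do not spell out AF. No group had only AF or only glucose withdrawal, so the part of each cannot be told apart. The labels do not say whether libraries of a group came from separate cultures, so p-values reflect only how far these libraries differed, and that may be technical. In bulk RNA, fewer cells of a kind and less RNA per cell cannot be told apart either.

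The libraries held 27731776 to 45811965 reads on the listed genes. Levels are given as CPM, a gene's reads relative to library size, on the deposited scale, and the pair of libraries in each group, named A and B here, has no order. Of 17 neural cell markers 13 were listed, SOX2, SOX10, NES and OLIG2 among them, and they summed to 2417 to 2957 CPM per library. Of 16 immune, endothelial, epithelial and erythroid markers 4 were listed, VWF, KRT8, KRT18 and CD68. Their sum was 69.8 to 88.1 CPM in the regular and 1 h treated libraries and 154 to 156 CPM in treated cells at 7 h, and its part in the results was not tested.

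Immediate early genes are switched on within minutes of a signal such as growth factors or stress, without new protein synthesis, and are switched off again by their own products and by fast decay of their mRNA. Many code for transcription factors of the FOS, JUN, EGR and NR4A families. Mitotic genes are instead made in a periodic wave before cell division. A treatment effect compares 2 groups at one time, so it can turn sign because the treated level moved, because the regular level moved, or because both did.

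The treatment effect (log2 of treated minus log2 of regular) passed an adjusted p of 0.05 in limma for 4997 genes (38.4%) at 1 h and for 10630 (81.6%) at 7 h. The difference between the 2 effects passed for 4783 genes (36.7%) towards a higher effect at 7 h and for 4823 (37%) towards a lower one. Regular cells changed between 1 h and 7 h in 8013 genes (61.5%), and treated cells in 10114 (77.6%). Of the 9606 genes with a called difference between the effects, 1738 (18.1%) were reversals, and every reversal had a called difference. The other called differences kept their sign or had an effect that was not called at 1 or both times. Of 2694 genes lower at 1 h, 922 were higher at 7 h, 1458 were lower again and 314 were not called. Of 2303 genes higher at 1 h, 816 were lower at 7 h, 1159 were higher again and 328 were not called. Of 8031 genes not called at 1 h, 3199 were higher and 3076 lower at 7 h, so calls in both directions were common at 7 h without an effect at 1 h. Whether sign turns were more or less common than these calls would give was not tested.

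The 922 genes that went from lower to higher were 7.08% of the genes tested, and the 816 that went from higher to lower were 6.26%. A stricter tier asked for an effect of at least 1.5-fold at both times. It held 182 genes from lower to higher (1.4%) and 81 from higher to lower (0.622%). These larger reversals are described most closely below, and the values at 1 h and 7 h that chose them are given as a description. Among the 182, 69 were at least 2-fold apart at both times, against 8 of the 81. The balance of the directions depended on how libraries were scaled. Scaling to the sum of reads on these genes (total scaling) moved the median difference between the effects over all genes by -0.38 on the log2 scale, with 0.07 for the effect at 1 h and -0.32 for that at 7 h. With it the reversals numbered 432 from lower to higher and 2022 from higher to lower, and the larger ones 123 and 168. Of the 182, 172 were still reversals under both other scalings tried, and so were 80 of the 81.

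**Figure D1:**
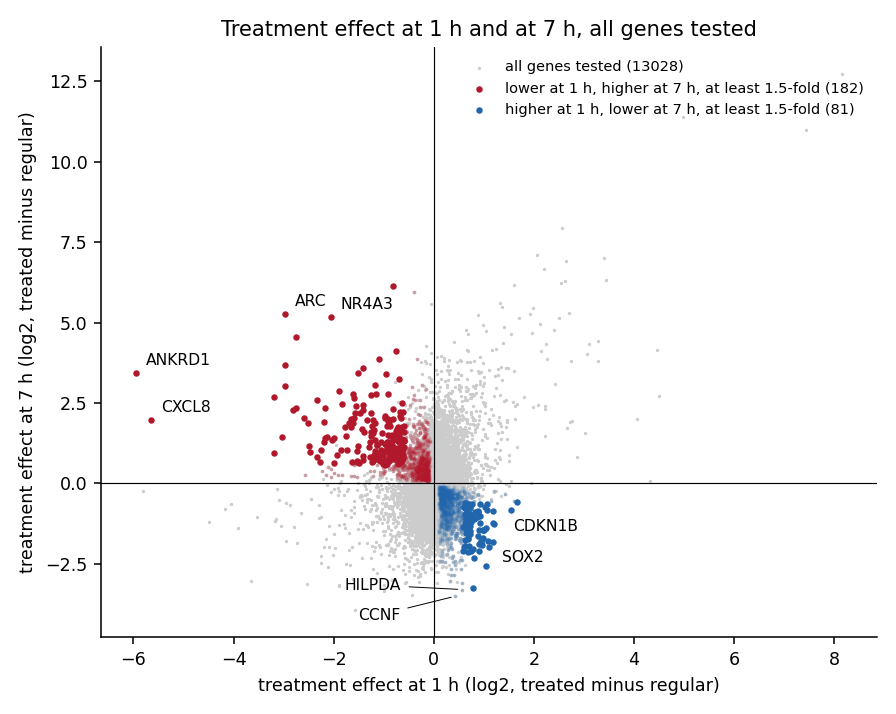
Treatment effect at 1 h (x axis) and at 7 h (y axis), both as log2 of treated minus regular, for the 13028 genes tested (grey), with the 922 and 816 reversals tinted and the 182 and 81 larger ones in full red and blue. Red genes fill the upper left, out to ANKRD1 and CXCL8, while the blue genes in the lower right lie closer to the vertical axis.

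To see which level moved, each reversal was split by the time change (7 h minus 1 h, log2) of regular and of treated cells. A reversal is called regular-led where the regular change was at least 2 times the treated change in size, treated-led in the opposite case, and otherwise both. Of the 182 larger reversals from lower to higher, 73 were regular-led, 32 were treated-led and 77 had both levels moving in opposite ways. The median change was -1.61 in regular cells and 1.05 in treated cells. The highest of the 4 groups was the regular culture at 1 h for 103 of them and the treated culture at 7 h for 79. Of the 81 from higher to lower, 7 were regular-led, 24 were treated-led and 50 had both levels moving in opposite ways. Their median change was 0.88 in regular cells and -1.26 in treated cells. The highest group was the regular culture at 7 h for 49 and the treated culture at 1 h for 32. In each direction the rule leaves only these 2 groups as possible highest ones, so the counts are a description. Over all genes tested the median change was 0.00 in regular and -0.03 in treated cells. The rule also fixes the sign of the treated change minus the regular change, so the medians of the reversals were partly set by it. Among all 922, 225 were regular-led and 394 treated-led, and among all 816 the numbers were 89 and 402.

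**Figure D2:**
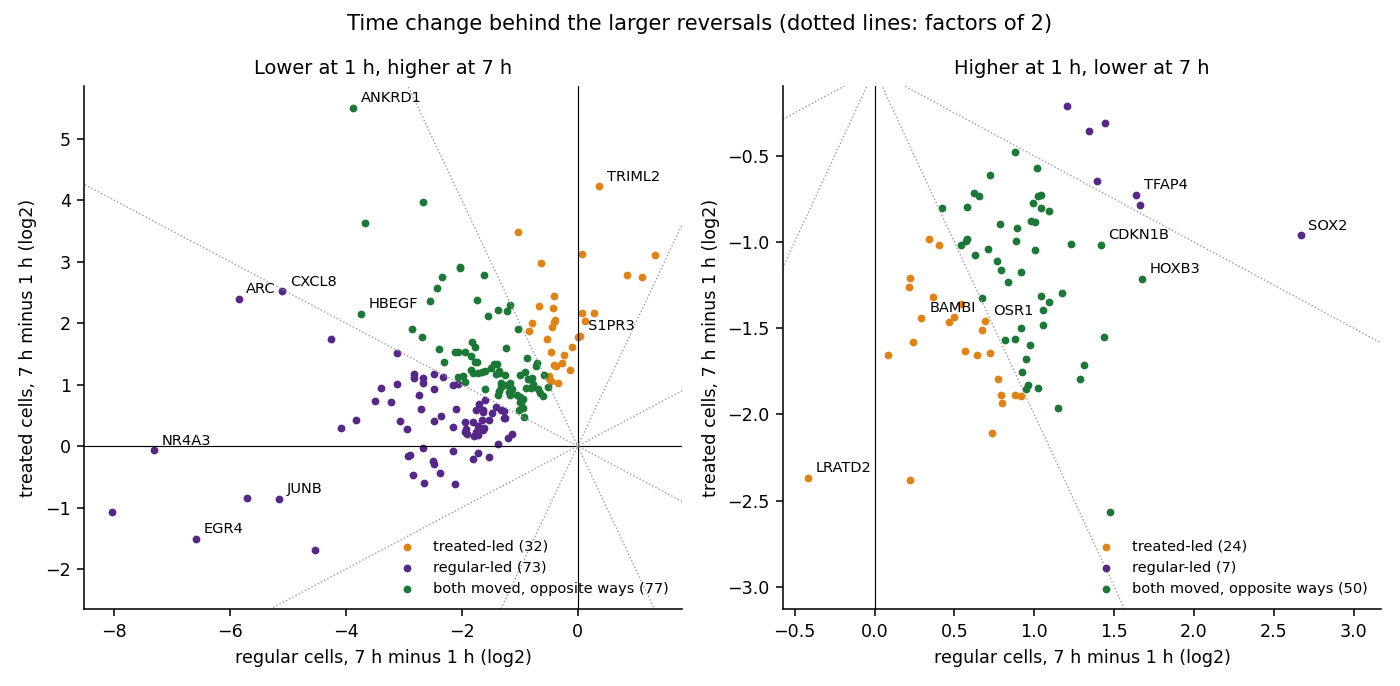
Change from 1 h to 7 h in regular cells (x axis) and treated cells (y axis), log2, for the 182 (left) and 81 (right) larger reversals, coloured by the level that led; dotted lines mark a ratio of 2 between the changes. The regular-led genes on the left reach beyond -7 for NR4A3 with a treated change near 0, while on the right SOX2 alone lies beyond 2 in regular cells.

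In 69 of the 73 regular-led genes from lower to higher, the regular culture at 1 h was the highest group. By the rule, only the treated culture at 7 h could have been the highest instead. NR4A3, an orphan nuclear receptor and immediate early gene, was at 159 and 135 CPM in regular cells at 1 h and 34.4 and 35.8 CPM in treated cells. At 7 h it was at 0.939 and 0.794 CPM in regular cells and 32.3 and 34.5 CPM in treated cells. The 4 treated libraries were thus alike at both times, and only the regular level crossed them. The effect was -2.06 ± 0.08 (SE) at 1 h and 5.19 ± 0.08 at 7 h on the log2 scale. The treated change over time was -0.07, beside -7.32 in regular cells. CXCL8, the neutrophil attractant interleukin-8, was at 470.0 and 469.8 CPM in regular and 8.58 and 10.2 CPM in treated cells at 1 h. At 7 h it was at 14.3 and 12.9 CPM in regular and 50.7 and 57.1 CPM in treated cells, so both levels moved, the regular one by -5.11 and the treated one by 2.52. Its effect at 1 h, -5.64 ± 0.07, was surpassed among the named genes by that of ANKRD1.

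The start regions of both genes are printed because they hold letters that transcription factors of this kind of early response are known to bind. They are RefSeq promoters on GRCh38.p14, 250 bases before to 50 bases after the start, 5′ to 3′ on the gene's strand. The NR4A3 window is chr9:99821635-99821934 on the plus strand, and capitals mark TGACG on either strand, the core of a cAMP response element. The CXCL8 window is chr4:73740319-73740618 on the plus strand, and capitals mark an AP-1 match (TGANTCA, bound by FOS and JUN proteins) and an NF-kB match (GGNNNTTCC).

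NR4A3: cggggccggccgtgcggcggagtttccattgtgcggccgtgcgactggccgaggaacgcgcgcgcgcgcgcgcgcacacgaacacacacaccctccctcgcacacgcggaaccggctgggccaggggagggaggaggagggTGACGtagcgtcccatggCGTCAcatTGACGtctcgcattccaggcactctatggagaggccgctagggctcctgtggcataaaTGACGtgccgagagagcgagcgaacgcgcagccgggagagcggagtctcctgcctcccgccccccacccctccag

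CXCL8: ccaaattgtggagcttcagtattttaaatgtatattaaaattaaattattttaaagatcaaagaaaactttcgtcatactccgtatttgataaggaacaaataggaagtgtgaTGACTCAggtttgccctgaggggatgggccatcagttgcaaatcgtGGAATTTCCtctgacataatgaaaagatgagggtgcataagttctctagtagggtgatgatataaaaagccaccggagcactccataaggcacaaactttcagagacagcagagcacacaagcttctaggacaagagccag

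NR4A3 held 4 TGACG matches, which begin 109, 91, 83 and 25 bases before the start, and CXCL8 held its AP-1 and NF-kB matches 137 and 91 bases before it. NR4A3 also held unmarked matches to NF-kB, GGAATG and ACGTG, and CXCL8 an unmarked match to TGACG. Of the windows of all genes tested, 34.5% held TGACG, 23% NF-kB and 4.51% AP-1. These are matches of letters and not sites shown to be bound.

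ARC codes for a synaptic protein whose mRNA is a classical immediate early transcript of neurons. It was at 73.8 and 67.7 CPM in regular and 9.52 and 8.44 CPM in treated cells at 1 h, and at 1.13 and 1.21 CPM in regular and 49.4 and 45.6 CPM in treated cells at 7 h. The order of the groups was reversed with no overlap of libraries, and the effects were -2.97 ± 0.08 and 5.28 ± 0.08. Its difference between the times, 8.25 ± 0.12, came from -5.86 in regular and 2.40 in treated cells. JUNB, an AP-1 subunit, fell by 5.16 in regular cells, from 382.1 and 370.0 to 10.3 and 10.7 CPM, and by 0.86 in treated cells, from 113.8 and 96.6 to 59.1 and 56.3 CPM. KDM6B, a demethylase of histone H3 lysine 27, went from 326.0 and 318.3 to 19.996 and 18.05 CPM in regular cells while treated cells held 57.0 and 56.5, then 70.5 and 68.7 CPM. EGR4, a zinc finger factor of the EGR family, went the same way, with effects of -2.80 ± 0.28 and 2.28 ± 0.28, but at low levels. At 7 h it had 26 reads in treated and 5 reads in regular cells, a ratio of 8.88 with an exact 95% interval of 3.36 to 29.6 from counting error only. The log2 effect at 7 h is smaller than this ratio because the deposited values hold a prior of 0.0522 CPM, which shrinks differences at such levels.

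A pair of immediate early genes outside the rule for named genes was added after their values were seen, for their wide change in regular cells, -8.05 for FOSB and -5.72 for NR4A1. FOSB, another AP-1 subunit, went from 356.9 and 302.1 CPM to 1.23 and 1.15 CPM in regular cells and from 190.0 and 182.8 to 92.1 and 84.4 CPM in treated cells. Its effect was -0.82 ± 0.06 at 1 h and 6.15 ± 0.06 at 7 h. NR4A1, the relative of NR4A3, went from 1594.5 and 1525.8 to 30.7 and 28.6 CPM in regular cells, and from 926.8 and 911.8 to 521.0 and 505.0 CPM in treated cells. In both genes the treated level fell as well, only far less than the regular one.

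Of the 33 immediate early genes tested, 18 (54.5%) were reversed from lower to higher, all 18 of them regular-led, and 12 were larger reversals. Another, PHLDA1, was reversed the other way. The background shares of all genes are 7.08% and 6.26%. All 33 fell over time in regular cells, with a median of -2.86, against 61.5% of all genes changing in either direction. In treated cells 21 fell and 9 rose over the same time, with a median of -0.38, against 77.6% of all genes changing in either direction. The median effect was -0.46 at 1 h and 2.24 at 7 h, beside 0.01 and -0.01 over all genes tested. With total scaling 17 members were still reversed from lower to higher, and with quantile scaling 18.

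Regular-led reversals were also found among genes of other programs. GADD45A, a p53 target that binds PCNA and slows the cell cycle, was at 184 and 175 CPM in regular and 82.7 and 77.4 CPM in treated cells at 1 h, and at 25.6 and 24.8 CPM against 166 and 180 CPM at 7 h. CDKN1A, the p21 inhibitor of cyclin-dependent kinases, was 0.64 ± 0.03 lower at 1 h and 2.51 ± 0.03 higher at 7 h on the log2 scale. Its regular level went from 259 and 258 to 57.3 and 59.0 CPM, and its treated level from 164 and 169 to 333 and 328 CPM. TNFAIP3, the A20 inhibitor of NF-kB signalling, had 68.8 and 69.3 CPM in regular cells at 1 h, and 7.37 to 16.6 CPM in the other 6 libraries. DUSP5, a phosphatase that acts on ERK, went from an effect of -1.41 ± 0.05 to 2.29 ± 0.05.

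PER1, PER2 and BHLHE40, repressors in the circadian clock, were regular-led too. PER1 was at 77.3 and 75.8 CPM in regular cells at 1 h and 10.2 and 9.75 CPM at 7 h, while the 4 treated libraries lay between 42.6 and 48.8 CPM. PER2 showed the same order at a lower level, with effects of -0.57 ± 0.06 and 1.37 ± 0.06, and fell short of 1.5-fold at 1 h. BHLHE40, also a hypoxia target, went from 572.3 and 558.9 to 78.4 and 78.7 CPM in regular cells and from 369.8 and 383.3 to 279.3 and 262.5 CPM in treated cells. Of 18 clock genes tested 7 were reversed from lower to higher (38.9%, beside 7.08% of all genes). These were 3 regular-led, 2 treated-led and 2 with both levels moving. HLF alone was reversed from higher to lower (5.56%, beside 6.26% of all genes).

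**Figure D3:**
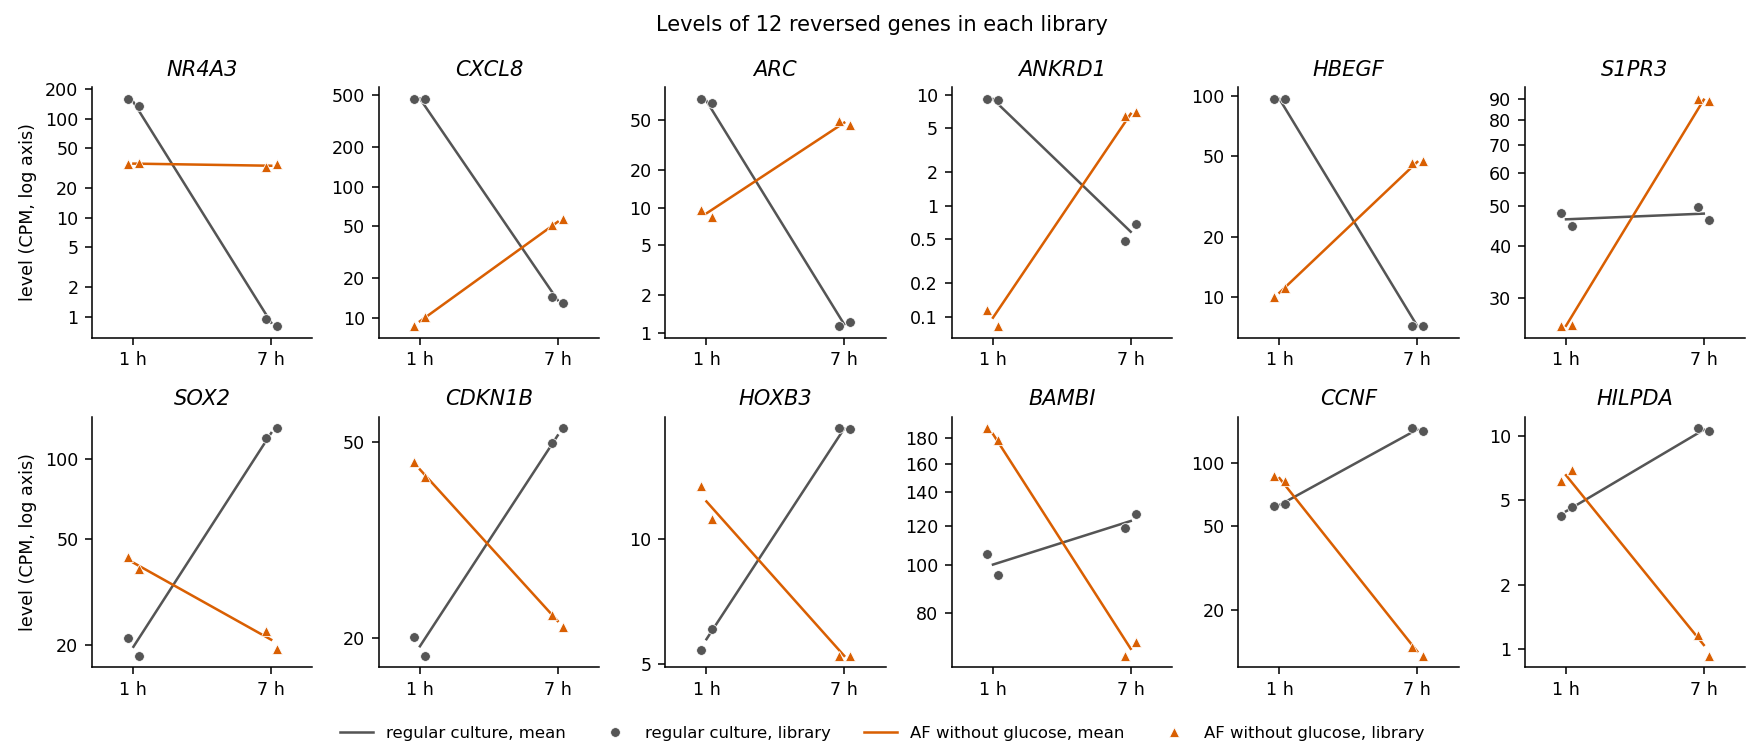
Levels in CPM on log axes of 12 reversed genes in regular (grey circles) and treated (orange triangles) libraries at 1 h and 7 h, with lines through the means of the 2 libraries. The lines cross in every panel: in NR4A3 the treated line is flat, in S1PR3 only the treated line is steep, and in CDKN1B both move in opposite ways.

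In 77 larger reversals from lower to higher, the regular level fell while the treated level rose by a like amount. ANKRD1, a muscle ankyrin repeat protein and a standard readout of YAP and TAZ activity, was at 9.21 and 9.02 CPM in regular and 0.114 and 0.0817 CPM in treated cells at 1 h. At 7 h it was at 0.480 and 0.684 CPM in regular and 6.45 and 6.99 CPM in treated cells. The libraries did not overlap at either time. The treated value at 1 h rests on 5 and 3 reads, so the ratio of 91.6 at that time has an exact 95% interval of 46.2 to 213 from counting error only. Its log2 effects, the first again shrunk by the prior, were -5.94 ± 0.22 and 3.43 ± 0.22, and its difference between the times, 9.38 ± 0.32, exceeded that of every other named gene.

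The ANKRD1 start region is printed because TEAD factors, through which TAZ acts on DNA, bind the letters GGAATG. The window is chr10:90921038-90921337 on the minus strand of GRCh38.p14, and capitals mark GGAATG, which begins 220 and 128 bases before the start. Left unmarked are matches to AP-1, NF-kB and the heat shock element (GAANNTTC), which begin 195, 220 and 123 bases before it. GGAATG was in 10.7% of the windows of all genes tested, and its role here was not tested.

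ANKRD1: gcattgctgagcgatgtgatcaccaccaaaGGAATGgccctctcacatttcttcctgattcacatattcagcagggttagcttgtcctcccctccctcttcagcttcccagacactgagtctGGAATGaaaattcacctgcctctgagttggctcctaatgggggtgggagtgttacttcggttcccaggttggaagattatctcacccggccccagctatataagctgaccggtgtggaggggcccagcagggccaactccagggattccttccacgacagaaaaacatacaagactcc

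Of 24 YAP and TAZ target genes tested, 4 were reversed from lower to higher (16.7%, beside 7.08% of all genes). All 4 were larger reversals: ANKRD1, F3, LATS2 and GADD45A. None was reversed the other way. The list as a whole did not follow them: 19 members were lower at 1 h and none higher, and at 7 h 18 were lower and 5 higher. Of all genes tested, 38.4% were called in either direction at 1 h and 81.6% at 7 h. F3, the tissue factor that starts blood clotting, was at 69.5 and 63.9 CPM in regular and 8.65 and 7.57 CPM in treated cells at 1 h, and at 10.9 and 9.75 CPM against 26.4 and 29.6 CPM at 7 h. LATS2, the kinase that inhibits YAP and TAZ, was 1.18 ± 0.05 lower at 1 h and 1.89 ± 0.05 higher at 7 h.

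HBEGF, a ligand of the EGF receptor, was at 96.9 and 95.9 CPM in regular and 9.998 and 11.03 CPM in treated cells at 1 h, and at 7.22 and 7.15 CPM against 46.4 and 47.5 CPM at 7 h. EREG, a second ligand of that receptor, was treated-led, with effects of -2.18 ± 0.37 and 2.34 ± 0.37 at levels of at most 2.81 CPM. With DUSP5 and 3 others, 6 of 20 MAP kinase feedback genes were reversed from lower to higher (30%) and 2 the other way (10%). The shares of all genes were 7.08% and 6.26%. ZC3H12A, a ribonuclease that degrades cytokine mRNAs, went from 79.3 and 83.6 to 10.9 and 11.4 CPM in regular cells and from 21.9 and 21.7 to 82.7 and 80.5 CPM in treated cells. MMP25, a membrane-anchored metalloproteinase, had effects of -2.33 ± 0.17 and 2.58 ± 0.17. SSUH2 had effects of -2.20 ± 0.15 and 1.92 ± 0.15. IL7R, a subunit of the interleukin-7 receptor, was 1.66 ± 0.05 lower and then 1.75 ± 0.05 higher.

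Of 22 NF-kB and inflammatory genes, 7 were reversed from lower to higher (31.8%, beside 7.08% of all genes). Of these, 5 were larger reversals, and no member was reversed the other way. At 1 h 19 of the 22 were lower in treated cells and 1 was higher, beside 2694 lower and 2303 higher of all 13028 genes. At 7 h 9 were higher and 10 were lower, with 81.6% of all genes called in either direction. The list as a whole was thus divided at the later time. IL11, a cytokine of the interleukin-6 family, was at 139 and 142 CPM in regular and 26.1 and 24.5 CPM in treated cells at 1 h, and at 63.3 and 61.6 CPM against 124 and 123 CPM at 7 h.

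Among TGF-beta and BMP feedback genes, 3 of those reversed from lower to higher were treated-led and 3 had both levels moving. SKIL, a repressor of SMAD signalling that TGF-beta induces, was at 154 and 138 CPM in regular and 60.6 and 55.5 CPM in treated cells at 1 h, and at 39.7 and 41.3 CPM against 158 and 164 CPM at 7 h. SMAD7, the inhibitory SMAD, had effects of -0.98 ± 0.05 and 1.23 ± 0.05. Of the 18 genes of this list 6 were reversed from lower to higher (33.3%, beside 7.08% of all genes). BAMBI, a pseudoreceptor that blocks TGF-beta and BMP signals, was reversed from higher to lower. BAMBI was at 105 and 95.2 CPM in regular and 189 and 179 CPM in treated cells at 1 h, and at 118 and 127 CPM against 65.4 and 69.9 CPM at 7 h.

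The 32 treated-led larger reversals from lower to higher were at lower levels, with a median of 5.58 CPM in the highest group, against 84.8 CPM for the regular-led ones. TRIML2 was at 1.95 and 1.97 CPM in regular and 0.685 and 0.708 CPM in treated cells at 1 h, and at 2.34 and 2.78 CPM against 13.9 and 14.0 CPM at 7 h. HOMER1, a scaffold protein of the synapse, went from 17.03 and 17.6 to 71.3 and 68.4 CPM in treated cells, while its regular level went from 33.9 and 30.6 to 17.3 and 19.8 CPM. S1PR3, a receptor for sphingosine 1-phosphate, was flat in regular cells, with 44.8 to 49.6 CPM, and went from 25.7 and 25.9 to 90.1 and 89.0 CPM in treated cells. GFPT2, an enzyme that makes hexosamine from a glucose product, rose in both cultures, by 0.86 in regular and 2.78 in treated cells. FAM83G had effects of -1.20 ± 0.16 and 1.65 ± 0.16. TNFRSF10B, the death receptor DR5, was at 170 and 167 CPM in regular and 107 and 106 CPM in treated cells at 1 h, and at 94.7 and 94.0 CPM against 384 and 393 CPM at 7 h. With GADD45A and CDKN1A it was 1 of 6 p53 target genes of 26 reversed in this direction (23.1%, beside 7.08% of all genes). PLK2, a kinase on the same list, was reversed the other way, with effects of 0.57 ± 0.04 and -1.57 ± 0.04.

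Larger reversals from higher to lower had a median effect of 0.74 at 1 h and -1.22 at 7 h, beside -1.03 and 1.34 for those from lower to higher. CDKN1B, the p27 inhibitor of cyclin-dependent kinases, was at 20.2 and 18.4 CPM in regular and 45.5 and 42.4 CPM in treated cells at 1 h, and at 49.8 and 53.2 CPM against 22.3 and 21.1 CPM at 7 h. Both levels crossed, by 1.41 in regular and -1.02 in treated cells, and the effects were 1.19 ± 0.06 and -1.24 ± 0.06. CDKN1A and CDKN1B, 2 inhibitors of 1 family, were thus reversed in opposite directions. CCNF, which codes for cyclin F, a subunit of a ubiquitin ligase, was at 62.3 and 63.4 CPM in regular and 86.8 and 82.1 CPM in treated cells at 1 h. At 7 h it was at 146 and 142 CPM in regular and 13.3 and 12 CPM in treated cells. Its effects were 0.42 ± 0.05 and -3.51 ± 0.05, so it was under 1.5-fold at 1 h and is not among the 81. Its difference between the times, -3.93 ± 0.07, was treated-led, with -2.74 in treated and 1.195 in regular cells.

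The start region of CDKN1B is printed because CCAAT, bound by the factor NF-Y, is known in promoters of many cell cycle genes. Its window is chr12:12717118-12717417 on the plus strand of GRCh38.p14, and capitals mark CCAAT on either strand.

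CDKN1B: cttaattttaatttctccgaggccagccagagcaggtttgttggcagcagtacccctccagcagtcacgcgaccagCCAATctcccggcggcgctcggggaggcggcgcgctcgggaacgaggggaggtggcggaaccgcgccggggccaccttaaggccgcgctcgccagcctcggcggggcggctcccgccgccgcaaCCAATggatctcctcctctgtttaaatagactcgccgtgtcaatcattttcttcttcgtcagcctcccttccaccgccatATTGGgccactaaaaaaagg

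CDKN1B held 3 CCAAT matches, which begin 174 and 50 bases before the start and, on the opposite strand, 31 bases after it. An unmarked match to TGACG begins 7 bases after the start. Of the windows of all genes tested, 36.9% held CCAAT and 34.5% TGACG.

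Of 45 mitosis and G2/M genes, 12 were reversed from higher to lower (26.7%, beside 6.26% of all genes) and none from lower to higher. Of the 12, 10 were treated-led and none was a larger reversal. At 1 h 12 of the 45 were higher and 11 lower, with a median of -0.02, which is smaller than the shift of 0.07 from total scaling. At 7 h all 45 were lower, with a median of -1.46, beside 81.6% of all genes called in either direction and a median of -0.01. So the direction at 7 h was shared by the list, and a small difference at 1 h set which members counted as reversed. PSRC1, a spindle protein, had effects of 0.33 ± 0.06 and -2.85 ± 0.06. HJURP, the chaperone that loads the centromere histone CENP-A, was at 180 and 185 CPM in regular and 236 and 242 CPM in treated cells at 1 h, and at 281 CPM in both regular and 111 and 109 CPM in treated libraries at 7 h. E2F2, an activator of the entry into S phase, was at 26.6 and 24.9 CPM against 32.8 and 32.2 CPM at 1 h, and at 38.9 and 38.4 CPM against 6.33 and 5.71 CPM at 7 h. It was 1 of 5 reversed in this direction among 40 DNA replication and G1/S genes (12.5%), beside 1 in the other (2.5%). PALB2, the partner of BRCA2, was 1 of 4 among 36 DNA repair genes (11.1%), with effects of 0.55 ± 0.06 and -1.45 ± 0.06. Over all genes these shares were 6.26% in this direction and 7.08% in the other. With total scaling the counts were 18 for mitosis, 10 for replication and 8 for repair. Over all 13028 genes tested the reversals in this direction rose with it too, from 816 to 2022.

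HILPDA, a hypoxia-induced protein of lipid droplets, was at 4.22 and 4.62 CPM in regular and 6.16 and 6.89 CPM in treated cells at 1 h, and at 10.8 and 10.5 CPM against 1.16 and 0.926 CPM at 7 h. Its effect was 0.56 ± 0.14 at 1 h (adjusted p 0.0032, limma) and -3.30 ± 0.14 at 7 h. The call at 1 h was lost without treated library B of that time (0.48, adjusted p 0.053). Of the 25 hypoxia target genes it was the 1 reversed in this direction (4%), while 6 were reversed from lower to higher (24%). The shares of all genes were 6.26% and 7.08%. PFKFB3, which makes the allosteric activator of phosphofructokinase, was among those 6, with effects of -0.42 ± 0.03 and 0.78 ± 0.03 and a regular change of -1.42 beside -0.22 in treated cells. It was also 1 of 5 glycolysis genes of 24 reversed from lower to higher (20.8%), of which total scaling left 1.

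SOX2, a stem cell factor of neural cells, was the widest of the 7 regular-led larger reversals from higher to lower. It was at 21.2 and 18.1 CPM in regular and 42.9 and 38.5 CPM in treated cells at 1 h. At 7 h regular cells had 120 and 130 CPM and treated cells 22.5 and 19.2 CPM, near the regular level at 1 h. Its effects were 1.05 ± 0.08 and -2.58 ± 0.08. SOX10, a factor of oligodendrocyte and neural crest cells, also went from higher to lower. It was treated-led (-1.89 in treated and 0.77 in regular cells) and under 1.5-fold at 1 h. At 1 h it was at 561 and 577 CPM in regular and 744 and 710 CPM in treated cells. At 7 h it was at 988 and 952 CPM against 199 and 192 CPM. The neural cell markers as a whole did not follow SOX2 and SOX10: of 13 tested, 10 were higher and 3 lower at 7 h. Of all genes tested, 81.6% were called in either direction at 7 h. The median effect of these markers at 7 h was 0.997, beside -0.01 over all genes tested. TUBB3, another of these markers, was reversed from lower to higher. Of the other regular-led genes, TFAP4 had effects of 0.67 ± 0.10 and -1.69 ± 0.10, and the long noncoding RNA LINC00461 had 0.98 ± 0.12 and -1.46 ± 0.12. ZNF606 had effects of 1.07 ± 0.11 and -0.63 ± 0.11.

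Among the genes in which both levels crossed, HOXB3, a homeobox factor, was at 5.41 and 6.08 CPM in regular and 13.4 and 11.2 CPM in treated cells at 1 h, and at 18.4 CPM in both regular and 5.25 and 5.23 CPM in treated libraries at 7 h. RBM43 was at 3.19 and 3.27 CPM in regular and 7.17 and 7.93 CPM in treated cells at 1 h, and at 7.14 and 7.57 CPM against 3.14 and 2.94 CPM at 7 h. The regular and treated cells of RBM43 thus traded levels. CCDC71 had 0.91 ± 0.08 and -1.88 ± 0.08. ATP6V0E2-AS1, an antisense RNA, had 0.91 ± 0.17 and -2.11 ± 0.17, and its reads cannot be told from those of the gene on the opposite strand in libraries that do not mark strand. Among the treated-led genes, LRATD2 was at 145 and 139 CPM in regular and 243 and 231 CPM in treated cells at 1 h, and at 103 and 109 CPM against 45.4 and 46.2 CPM at 7 h. LRIG3, a membrane protein with leucine-rich repeats, had effects of 0.92 ± 0.05 and -1.01 ± 0.05. OSR1, a zinc finger factor of early mesoderm, had 0.93 ± 0.09 and -1.22 ± 0.09. HYLS1, a protein of centrioles and cilia, had 0.93 ± 0.10 and -1.83 ± 0.10.

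Genes whose symbols name them as zinc finger proteins (ZNF, ZKSCAN, ZSCAN, ZFP or ZBTB) were many in this direction. This group was formed after the values were seen and has no test. It holds 538 of the genes tested (4.13%), 131 of the 816 (16.1%) and 31 of the 81 larger reversals (38.3%). From lower to higher it holds 20 of the 922 and 5 of the 182. Its median effect was 0.24 at 1 h and -0.20 at 7 h. With total scaling these medians were 0.31 and -0.52, and with quantile scaling 0.21 and -0.19. Of the 538, 275 were higher and 52 lower at 1 h, and 271 were lower and 166 higher at 7 h. Over all 13028 genes tested, 2303 were higher and 2694 lower at 1 h, and 81.6% were called in either direction at 7 h. ZNF30 went from 2.86 and 3.38 CPM against 6.53 and 5.20 CPM at 1 h to 6.18 and 6.73 CPM against 2.24 and 2.39 CPM at 7 h. ZFP90 had effects of 0.79 ± 0.08 and -1.11 ± 0.08. In 13 of the 31 no group reached 5 CPM, and of all 81 larger reversals of this direction 46 reached it, so low levels were common in the whole set. Genes on chromosome 19, where many zinc finger genes cluster, were 17.5% of the annotated larger reversals of this direction, 8.6% of all annotated reversals of this direction and 7.04% of all annotated genes.

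**Figure D4:**
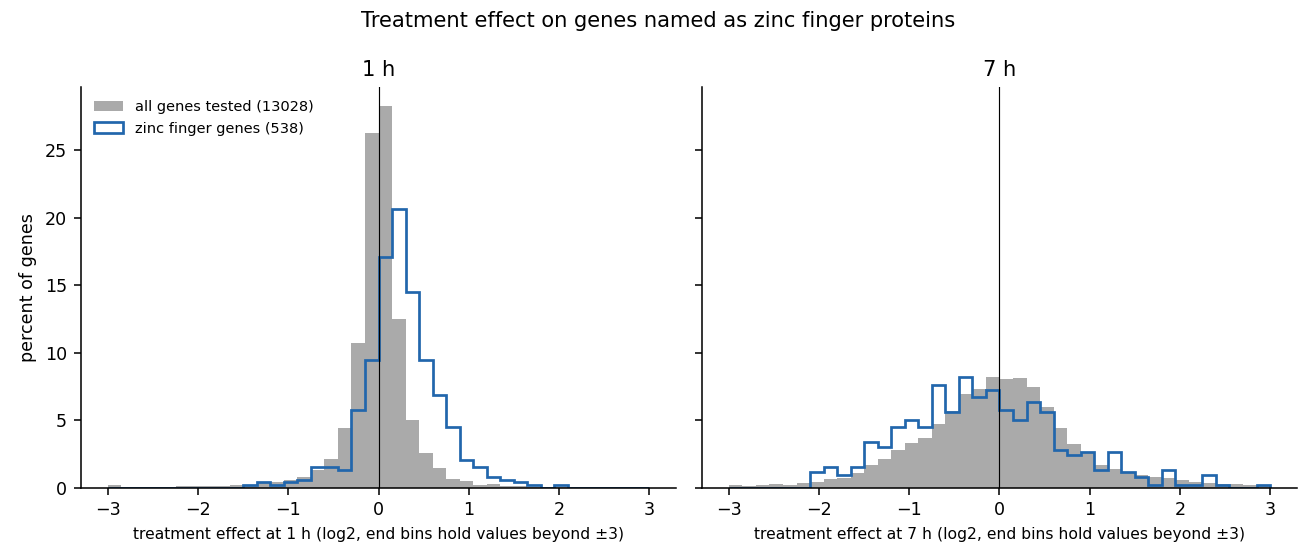
Treatment effect (log2) at 1 h (left) and 7 h (right) of the 538 zinc finger genes (blue line) and all 13028 genes tested (grey), as percent of genes per bin. The blue line is shifted to the right of the grey at 1 h, with a median of 0.24, and to its left at 7 h, with a median of -0.20.

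Most other lists held few reversals or none, beside 7.08% of all genes from lower to higher and 6.26% from higher to lower. No heat shock protein or co-chaperone of 25 was reversed: all 25 were higher at 7 h, and 23 were already higher at 1 h. Of all 13028 genes, 2303 were higher at 1 h, and 81.6% were called in either direction at 7 h. Of 38 ATF4 and integrated stress response genes 1 was reversed, SLC7A1, a carrier of cationic amino acids, with effects of -0.54 ± 0.03 and 0.69 ± 0.03. Of 34 NRF2 target genes 1 was reversed, and 31 were higher at 7 h. Of 46 cytosolic ribosomal protein genes 1 was reversed, and none of 13 mitochondrially encoded genes was. Of 30 actin cytoskeleton and SRF genes 4 were reversed from lower to higher (13.3%). The list as a whole did not follow them: 27 members were lower at 1 h and none higher, and at 7 h 23 were lower and 4 higher. Of all genes tested, 2694 were lower at 1 h, and 81.6% were called in either direction at 7 h. FHL2, a LIM protein, had effects of -0.94 ± 0.03 and 1.12 ± 0.03. ZYX, which codes for zyxin of focal adhesions, had -1.59 ± 0.03 and 0.25 ± 0.03, and its effect at 7 h was -0.07 with total and 0.02 with quantile scaling. Total scaling left 1 of the 4 reversals of this list. In all, 35 of the 182 and 3 of the 81 larger reversals belonged to any of the 24 lists.

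**Figure D5:**
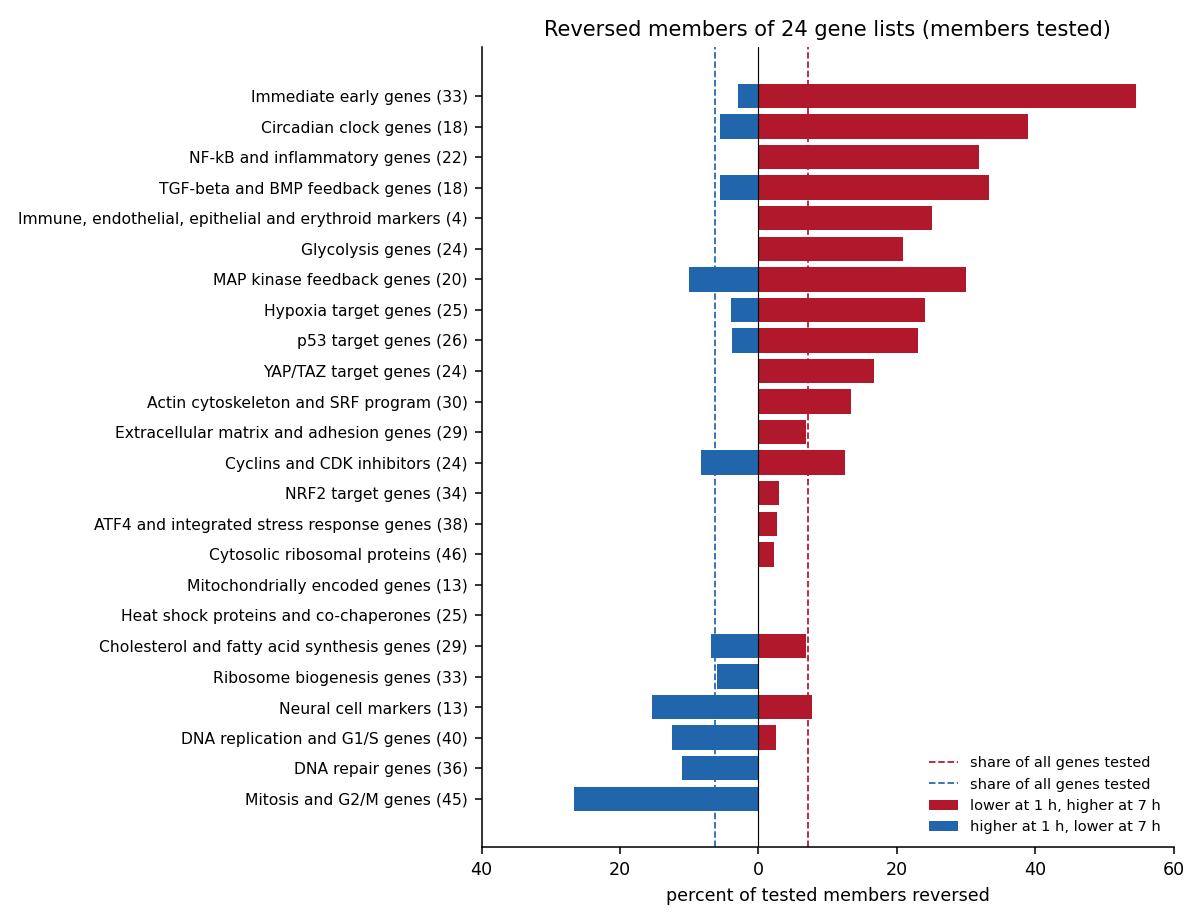
Percent of tested members of 24 gene lists that were reversed from lower to higher (red, to the right) and from higher to lower (blue, to the left), with the number tested in parentheses and dashed lines at the shares of all genes, 7.08% and 6.26%. Immediate early genes reach 54.5% to the right and mitosis genes 26.7% to the left.

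The start regions were searched on both strands for 10 motifs. RefSeq held a window for 80.2% of the genes tested, 80.9% of the 922 and 81.6% of the 816. It held 74.7% of the 182 and 70.4% of the 81, so the search is void for the larger reversals, too many of which have no window. HILPDA and ARC have no start region printed. AP-1 (TGANTCA) was in 7.1% of the windows of the 922, 4.05% of those of the 816 and 4.51% of all. The full cAMP response element (TGACGTCA) was in 6.57%, 2.7% and 3.35%, and its core (TGACG), which lies within it, was in 41.7%, 31.7% and 34.5%. The letters TTTGAA were in 8.31%, 12.5% and 9.84%, CCAAT in 36.1%, 39.2% and 36.9%, and GGAATG in 10.9%, 8.71% and 10.7%. NF-kB (GGNNNTTCC) was in 25.5%, 25.7% and 23.0%, the hypoxia response element (ACGTG) in 29.1%, 25.8% and 26.8%, and the heat shock element (GAANNTTC) in 4.16%, 4.5% and 4.7%. The CArG box was in 0.938%, 0.751% and 0.651%. These shares are descriptions, and windows of the sets differ in base composition, with a median GC content of 67.7%, 64.3% and 65.3%.

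Among larger reversals from lower to higher, the median genomic span was 12650 bp for the 73 regular-led and 37330 bp for the 32 treated-led. It was 19620 bp for the 182, 34820 bp for the 922 and 30210 bp for all genes tested. From higher to lower it was 18040 bp for the 81 and 28900 bp for the 816. Just inside the 1.5-fold threshold lay BHLHE40, with effects of -0.59 and 1.78, SOD2, with -0.97 and 0.59, and ZFP14, with 0.59 and -2.10. Under all 3 scalings at once, 123 of the 182 and 68 of the 81 were larger reversals. BHLHE40 and CDKN1A were not: at 1 h their effects were -0.52 and -0.57 with total scaling, and -0.54 and -0.57 with quantile scaling. Just outside lay ATP13A3, with -0.76 and 0.58, and TIGD2, with 0.58 and -1.08.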

How the data were processed

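The authors deposited 1 table of log2 CPM values for 13036 genes in 8 libraries (64 without a symbol), with a prior of 0.0522 CPM and scaled between libraries already; the prior and scaling were worked out from the values. HISAT2, edgeR and GRCh38 stand in the submitters' processing notes; the versions and the counting tool were not given in the sources used. After removal of the prior, 100% of values checked lay within 0.1 read of a whole read. Libraries were made with SMART-Seq and Nextera XT kits, per the labels' protocols, which do not mark strand.

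A gene needed 1 CPM or more in 2 or more libraries (13028 kept, 8 removed). Limma 3.58.1 (R 4.3.3) fitted the 4 group means to the deposited log2 values with an intensity trend. There were 4 residual degrees of freedom, and p-values were adjusted by Benjamini-Hochberg over all genes. Effects are log2 differences and ± is the standard error. Total scaling divides by the sum of listed reads. In a library without a read, a level of up to 0.0626 to 0.129 CPM (3 reads) remains possible. Intervals cover counting error only.

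The members, gene lists, thresholds and tests were chosen with earlier results of these data known. Named genes are 5 markers, the 6 larger reversals per direction and class with the greatest smaller effect among those at 5 CPM or more with libraries that do not overlap, leaving out pseudogenes, clone names, LOC symbols and genes without a symbol, and up to 3 members per direction of each list; 61 genes are described, 2 of them added later. A few items are not reported here. The fit was tested on simulated data. Scaling, filter, pseudocount, model, thresholds and single libraries were varied.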

Additional observations from a re-analysis of the deposited data

Results flagged for a closer look

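The genes below stand here because their treatment effect differed between 1 h and 7 h in the limma contrast over 4 groups of 2 libraries. They had been chosen for effects of opposite sign at the 2 times, and all 1738 reversals had a called difference, so the contrast adds no support and the values are a description. Values are the effect at 7 h minus that at 1 h on the log2 scale, so a positive one belongs to a gene that went from lower to higher.

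Among regular-led genes the difference was 8.25 for ARC, 7.62 for CXCL8, 7.25 for NR4A3, 6.97 for FOSB and 5.08 for EGR4. It was 4.87 for NR4A1, 4.37 for KDM6B, 4.30 for JUNB, 4.14 for TNFAIP3, 3.94 for GADD45A and 3.70 for DUSP5. It was 3.14 for CDKN1A, 2.77 for PER1, 2.37 for BHLHE40, 1.94 for PER2, 1.84 for ZYX and 1.196 for PFKFB3.

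Where both levels moved, it was 9.38 for ANKRD1, 5.89 for HBEGF, 4.91 for MMP25, 4.76 for ZC3H12A and 4.47 for F3. It was 4.12 for SSUH2, 3.46 for IL11, 3.41 for IL7R, 3.31 for SKIL, 3.07 for LATS2, 2.21 for SMAD7 and 2.06 for FHL2. Among treated-led genes it was 4.52 for EREG, 3.85 for TRIML2, 2.85 for FAM83G, 2.81 for HOMER1 and 2.70 for TNFRSF10B. It was 1.93 for GFPT2, 1.75 for S1PR3 and 1.23 for SLC7A1.

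From higher to lower, the difference in treated-led genes was -3.93 for CCNF, -3.85 for HILPDA, -3.18 for PSRC1, -3.01 for E2F2, -2.77 for HYLS1 and -2.66 for SOX10. It was -2.15 for OSR1, -1.95 for LRATD2, -1.93 for LRIG3, -1.90 for ZFP90 and -1.73 for BAMBI. In regular-led genes it was -3.63 for SOX2, -2.44 for LINC00461, -2.36 for TFAP4 and -1.70 for ZNF606. Where both moved, it was -3.02 for ATP6V0E2-AS1, -2.89 for HOXB3, -2.79 for CCDC71, -2.47 for RBM43 and -2.43 for CDKN1B. It was -2.35 for ZNF30, -2.14 for PLK2, -2.002 for PALB2 and -1.74 for HJURP. None of these differences is as wide as those of ARC, CXCL8 or NR4A3.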

How the results depend on the processing

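With total scaling, 2515 genes had a called positive and 7583 a called negative difference between the effects. Reversals then numbered 432 from lower to higher (425 under all 3 scalings at once, an alternative chosen after seeing the data) and 2022 from higher to lower. Larger reversals from lower to higher were 18 treated-led and 42 with both moving, and those from higher to lower were 168, 89 of them treated-led. With quantile scaling 15 of the latter were treated-led. The effect of ZYX at 7 h was -0.071 with total scaling. The cause of these changes was not tested.

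Larger reversals from higher to lower rested partly on low levels. A filter at 5 CPM, which tests fewer genes, left 46 (4 regular-led, 26 both), and a pseudocount of 1 CPM, which shrinks low genes, left 44 (14 treated-led, 3 regular-led, 27 both). Treated-led ones from lower to higher were then 17 and 14. A threshold of 2-fold left 69 from lower to higher (7 treated-led, 28 regular-led, 34 both) and 8 from higher to lower (0, 1 and 7). An adjusted p of 0.01 left 488 reversals from higher to lower. A split factor of 1.5 gave 41 treated-led and 31 both from higher to lower. A factor of 3 gave 9 treated-led and 3 regular-led, and 48 regular-led from lower to higher.

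Leaving out 1 library at a time, with the lone library assumed to vary like the others, gave 707 to 913 and 565 to 870 reversals, and 164 to 187 and 73 to 96 larger ones. Regular-led ones from higher to lower were 5 to 11, the highest without regular library B at 1 h. With limma-voom on whole reads, no filter, no intensity trend or a robust fit, all counts stayed within 1.5 times. No paired analysis was possible because the columns carry no replicate numbers. Very low levels, such as ANKRD1 in treated cells at 1 h, limit what depth can show.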
